A study of Homo sapiens with 12 samples.

Results

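Aldehyde dehydrogenases (ALDH) were followed in side population (SP) and non-SP cells of A549, a human lung adenocarcinoma cell line. The members were ALDH1A1, ALDH1A2, ALDH1A3, ALDH1B1, ALDH2, ALDH3A1, ALDH3A2, ALDH3B1, ALDH7A1 and ALDH9A1. These are 10 genes of the 19775 with a probe set of their own, and their probe sets were found by symbol. They carried 19 probe sets (short groups of array probes read as 1 value), of which 17 were bright enough to be tested and 2 were not. The 4 groups held 3 biological replicates each: anti-EpCAM treated SP cells, anti-EpCAM treated non-SP cells, untreated SP cells and untreated non-SP cells. Treated cultures received a monoclonal antibody, which the labels call anti-mouse EpCAM, at 100 µg/ml for 48 h, and the labels do not say whether mouse is its host or its target. Hoechst 33342 staining (5 µg/ml, 90 min) preceded the sort into SP cells, which export the dye, and non-SP cells. The labels mention staining with and without reserpine, an efflux blocker, and do not say which staining was sorted. All arrays come from a single cell line, and no untreated culture is labelled as having received a control antibody.

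ALDH enzymes oxidise aldehydes to carboxylic acids with NAD or NADP. Cells with high ALDH activity are often isolated by a fluorescent substrate as candidate stem-like tumour cells, and ALDH1A1 and ALDH3A1 are known for high expression in non-small cell lung cancer lines. The ALDH1A enzymes make retinoic acid from retinal, while other members clear acetaldehyde, lipid peroxidation products, fatty aldehydes or intermediates of amino acid breakdown. A549 cells carry a mutated KEAP1, the inhibitor of the transcription factor NRF2, which drives many genes of aldehyde and oxidant defence.

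Values are log2 expression values from an Affymetrix array, deposited after RMA and here quantile-normalised over the 12 arrays, so that 1 unit is a doubling. The deposited values looked normalised in 6 sets, each of the SP and the non-SP array of a treatment and replicate number. The sorted values differed by a mean of 0.00933 to 0.0215 within these 6 pairs, against 0.0458 to 0.525 between other arrays. The deviations of the 2 arrays of a pair from their group means correlated with r of 0.51 to 0.86. A common sort of both fractions is not stated in the labels, and whether normalisation in these sets contributed to r was not tested. Fractions were compared by limma on the 6 within-pair differences, and the antibody by limma on the 6 pair means. ABCG2, the pump that exports the dye, was higher in SP cells by 0.47 ± 0.060 (SE, n = 6 pairs, limma adjusted p = 0.0253) and in all 6 pairs. That call was lost without any 1 pair other than anti-EpCAM pair 1 (adjusted p of 0.0727 to 0.143), at equal GAPDH control values (0.0550) and with no pairing (0.264). EPCAM had a difference of 0.25 ± 0.057 (adjusted p = 0.120). All 5 epithelial markers were above the limit for testing of 5.39, with means of 9.86 to 14.55. So were 4 of 6 fibroblast markers (COL1A1 9.31, DCN 6.14, COL1A2 5.80 and PDGFRB 5.74), 1 of 4 endothelial markers (PECAM1 6.71) and 2 of 4 measured leukocyte markers (CD14 6.83 and CD3E 6.71). Below it lay LUM, COL3A1, CDH5, VWF, KDR, PTPRC and LYZ. In bulk RNA, fewer cells that express a gene and less RNA per cell cannot be told apart.

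Promoter windows were available for 8 of the 10 genes, all but ALDH2 and ALDH3A1. They were 11 windows of 250 bases before to 50 bases after a transcription start (RefSeq, GRCh38.p14). The windows of 3 genes are shown: ALDH1A1, whose level was near the top of the array, ALDH1B1, whose 2 probe sets had the same sign in most pairs, and ALDH3B1, whose probe set 211004_s_at had the lowest p of the members for SP against non-SP cells over the 6 pairs. Capitals mark 3 motifs on either strand. They are CCAAT, known as the CCAAT box, then the GC box with the letters GGGCGG, and last the core TGACNNNGC of the antioxidant response element that NRF2 binds.
ALDH1A1, chr9:72953004-72953303, minus strand: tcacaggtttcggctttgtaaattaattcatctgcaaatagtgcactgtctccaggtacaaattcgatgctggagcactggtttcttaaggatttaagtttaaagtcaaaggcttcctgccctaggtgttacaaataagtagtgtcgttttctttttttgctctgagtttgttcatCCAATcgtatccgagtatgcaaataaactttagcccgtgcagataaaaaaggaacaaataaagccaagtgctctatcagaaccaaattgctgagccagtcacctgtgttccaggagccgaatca
ALDH1B1, chr9:38392452-38392751, plus strand: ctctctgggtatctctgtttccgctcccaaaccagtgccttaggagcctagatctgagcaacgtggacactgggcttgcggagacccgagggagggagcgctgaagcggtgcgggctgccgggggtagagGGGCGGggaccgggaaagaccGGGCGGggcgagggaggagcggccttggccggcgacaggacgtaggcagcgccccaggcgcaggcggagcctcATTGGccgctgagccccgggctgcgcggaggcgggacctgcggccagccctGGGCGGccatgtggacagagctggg
ALDH3B1 upstream start, chr11:68008297-68008596, plus strand: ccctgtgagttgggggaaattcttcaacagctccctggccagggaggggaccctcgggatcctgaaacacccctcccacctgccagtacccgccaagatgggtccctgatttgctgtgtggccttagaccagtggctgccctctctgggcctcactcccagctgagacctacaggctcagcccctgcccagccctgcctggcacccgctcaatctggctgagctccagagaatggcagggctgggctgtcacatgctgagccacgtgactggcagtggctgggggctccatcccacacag
ALDH3B1 downstream start, chr11:68010077-68010376, plus strand: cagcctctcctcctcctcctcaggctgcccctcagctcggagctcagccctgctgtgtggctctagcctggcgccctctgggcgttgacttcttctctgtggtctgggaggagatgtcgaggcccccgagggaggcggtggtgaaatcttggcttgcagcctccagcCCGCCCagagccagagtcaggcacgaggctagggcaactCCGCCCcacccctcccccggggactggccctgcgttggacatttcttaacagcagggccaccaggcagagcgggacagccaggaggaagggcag
The ALDH1A1 window held 40.3% G and C and 1 CCAAT box and no GC box, while the ALDH1B1 window held 71.3% G and C, 1 CCAAT box and 3 GC boxes. The 2 ALDH3B1 windows held 63.7% and 66.7% G and C, with GC boxes only in the downstream one. Over all 11 windows, 6 held CCAAT, 7 held GGGCGG and 0 held TGACNNNGC, against 34.6%, 45% and 13.3% of 35116 promoter windows in all. A match describes letters and not a bound site.

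The first question was whether SP cells carry more ALDH transcript than non-SP cells. Of the 17 tested ALDH probe sets, 0 passed for SP against non-SP cells over the 6 pairs at an adjusted p under 0.05 by limma, against 0.61% of the 32768 probe sets tested, 0.174% higher and 0.436% lower in SP cells. At an unadjusted p under 0.05 limma counted 1 of the 17, against 14.5% of all probe sets. The same sign in all 6 pairs was seen in 0 of the 17, against 10.1% of all. Estimates were above 0 for 9 probe sets and below 0 for 8, with a median of 0.0076, against 0.0085 over all probe sets tested. The median size of the difference regardless of sign was 0.045, against 0.072 over all, and the members were not matched to all probe sets by level. In this paired fit the 95% interval lay inside ±0.5, or 1.41-fold, for 16 of the 17 probe sets, and inside ±0.25, or 1.19-fold, for 11. The ABCG2 difference of 0.47 is itself smaller than 0.5. The intervals rest on a pairing that the labels do not state. With no pairing, the SEs of the ALDH3A2 and ALDH3B1 probe sets were 0.097 to 0.28, against 0.050 to 0.20 in the paired fit.

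**Figure D1:**
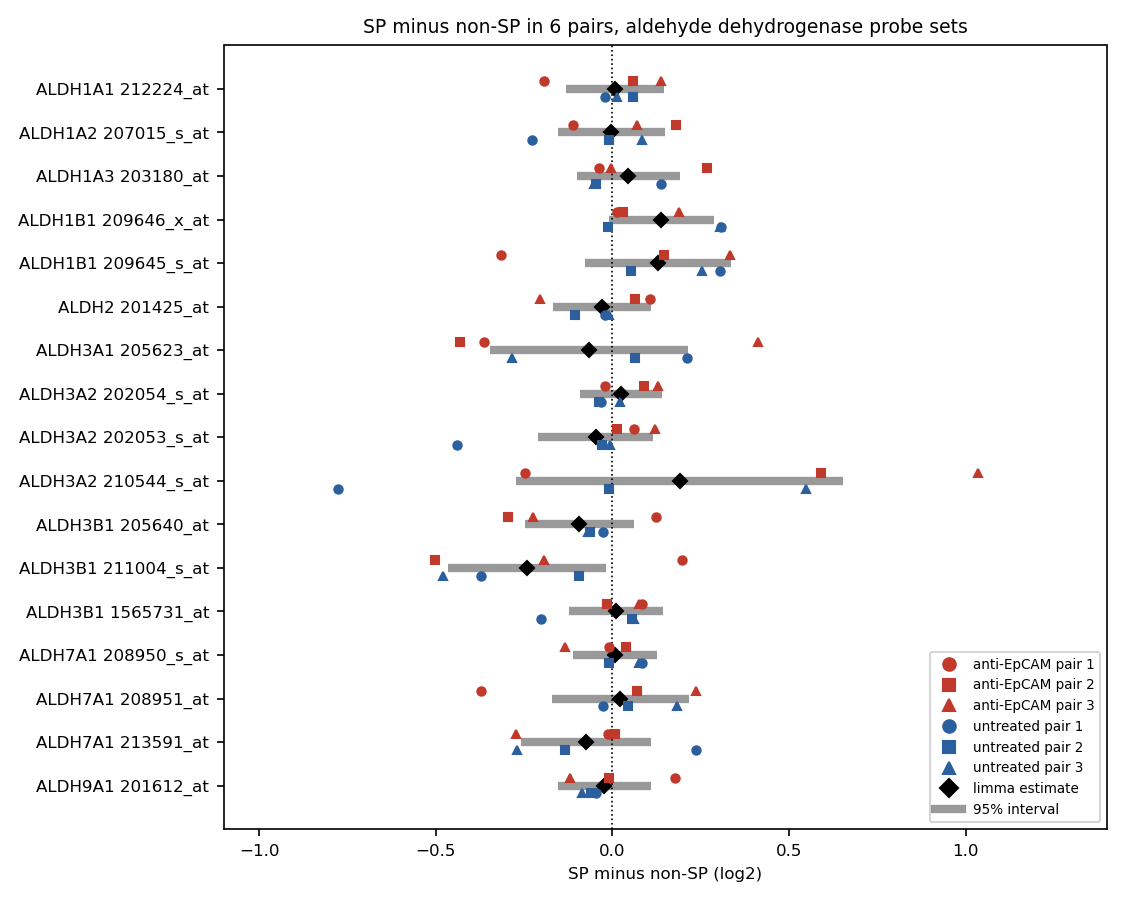
SP minus non-SP differences (x axis, log2) of the 17 tested ALDH probe sets, one row each. Small symbols are the 6 pairs, black diamonds the limma estimate and grey bars its 95% interval. Estimates run from -0.24 (ALDH3B1 211004_s_at) to 0.19 (ALDH3A2 210544_s_at), and the widest interval is that of 210544_s_at, from -0.27 to 0.65.

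ALDH1A1, the cytosolic retinal dehydrogenase most used as a stem cell marker, was close to the top of every array. Its probe set 212224_at ranked between 25 and 109 of 54613 on the 12 arrays. It read 14.26, 14.60 and 14.53 in anti-EpCAM SP cells, against 14.45, 14.54 and 14.40 in anti-EpCAM non-SP cells (replicates 1, 2 and 3). In untreated cells it read 14.31, 14.39 and 14.59 in SP, against 14.33, 14.33 and 14.58 in non-SP cells. The 4 groups overlapped fully, with a range of 0.34 over the 12 arrays. The within-pair difference was 0.0084 ± 0.060 (SE, n = 6 pairs; adjusted p = 0.964), with a 95% interval of -0.13 to 0.15 and a higher SP value in 4 of 6 pairs. The highest values deposited for the 12 arrays were 14.81 to 14.95, and whether signals so near that limit understate differences was not tested.

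The other retinal dehydrogenases are ALDH1A3 and ALDH1A2. ALDH1A3, also studied as a stem-like cell marker in lung tumours, was measured by 203180_at. It read 9.48, 8.91 and 9.14 in anti-EpCAM SP cells, against 9.52, 8.64 and 9.14 in anti-EpCAM non-SP cells, and 9.48, 9.10 and 8.89 in untreated SP cells, against 9.34, 9.14 and 8.94 in untreated non-SP cells. Replicate 1 was the highest in all 4 groups, and the fractions differed by 0.045 ± 0.063 (adjusted p = 0.788). Its second probe set 1558649_at had a mean of 4.90 and was below the limit for testing. There the SP value was lower in 5 of 6 pairs, with an estimate of -0.26 (95% interval -0.52 to 0.010, adjusted p = 0.453) when the dim probe sets were included. ALDH1A2, the embryonic retinal dehydrogenase, was near the middle of the array, with 5.79 to 6.44 for 207015_s_at and a difference of -0.0027 ± 0.065. The second ALDH1A2 probe set, 207016_s_at, had a mean of 4.27 and was also below the limit, and its estimate was 0.17 (95% interval -0.038 to 0.37) when included.

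Of the mitochondrial acetaldehyde enzymes, ALDH1B1 had positive estimates in both probe sets, and neither passed. Probe set 209646_x_at was higher in SP cells in 5 of 6 pairs, by 0.013, 0.030 and 0.19 in anti-EpCAM pairs 1, 2 and 3 and by 0.31, -0.011 and 0.30 in the untreated pairs. The estimate was 0.14 ± 0.064 (95% interval -0.0094 to 0.29, adjusted p = 0.373). Its partner 209645_s_at was also higher in 5 of 6 pairs, at 0.13 ± 0.089 (adjusted p = 0.549), though by -0.32 in anti-EpCAM pair 1. The levels of 209645_s_at in untreated cells were 7.23, 7.19 and 7.31 in SP, against 6.92, 7.14 and 7.05 in non-SP cells. In anti-EpCAM cells they were 7.13, 7.62 and 7.43 in SP, against 7.45, 7.47 and 7.09 in non-SP cells. The treated minus untreated fraction difference of 209645_s_at was -0.15 ± 0.18, and did not pass in limma. ALDH2, the main mitochondrial enzyme of acetaldehyde oxidation, differed by -0.029 ± 0.060 (adjusted p = 0.863) and ranged from 11.30 to 12.11.

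ALDH3A1 oxidises aromatic and lipid peroxidation aldehydes and can inactivate cyclophosphamide metabolites. Among the tested ALDH probe sets, its probe set 205623_at had the largest SD over the 12 arrays, 0.61. It read 11.67, 12.41 and 13.23 in anti-EpCAM SP cells, against 12.04, 12.85 and 12.82 in anti-EpCAM non-SP cells. In untreated cells it read 11.73, 11.83 and 12.75 in SP, against 11.52, 11.76 and 13.04 in non-SP cells. Replicate 1 was the lowest in each of the 4 groups, and the values of the 12 arrays spanned 1.71. SP cells were higher in 3 of 6 pairs, and the estimate was -0.066 ± 0.12 (95% interval -0.35 to 0.21, adjusted p = 0.843). The SD of pair means within treatments was 0.64, against 0.38 for within-pair differences. For the 17 probe sets the SD of pair means exceeded that of differences in 10, or 58.8%, against 59.7% of all probe sets. A mean of independent arrays varies less than their difference, so equal SDs are not a neutral point. The SD of differences describes their spread between pairs and not the size of the fraction difference.

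**Figure D2:**
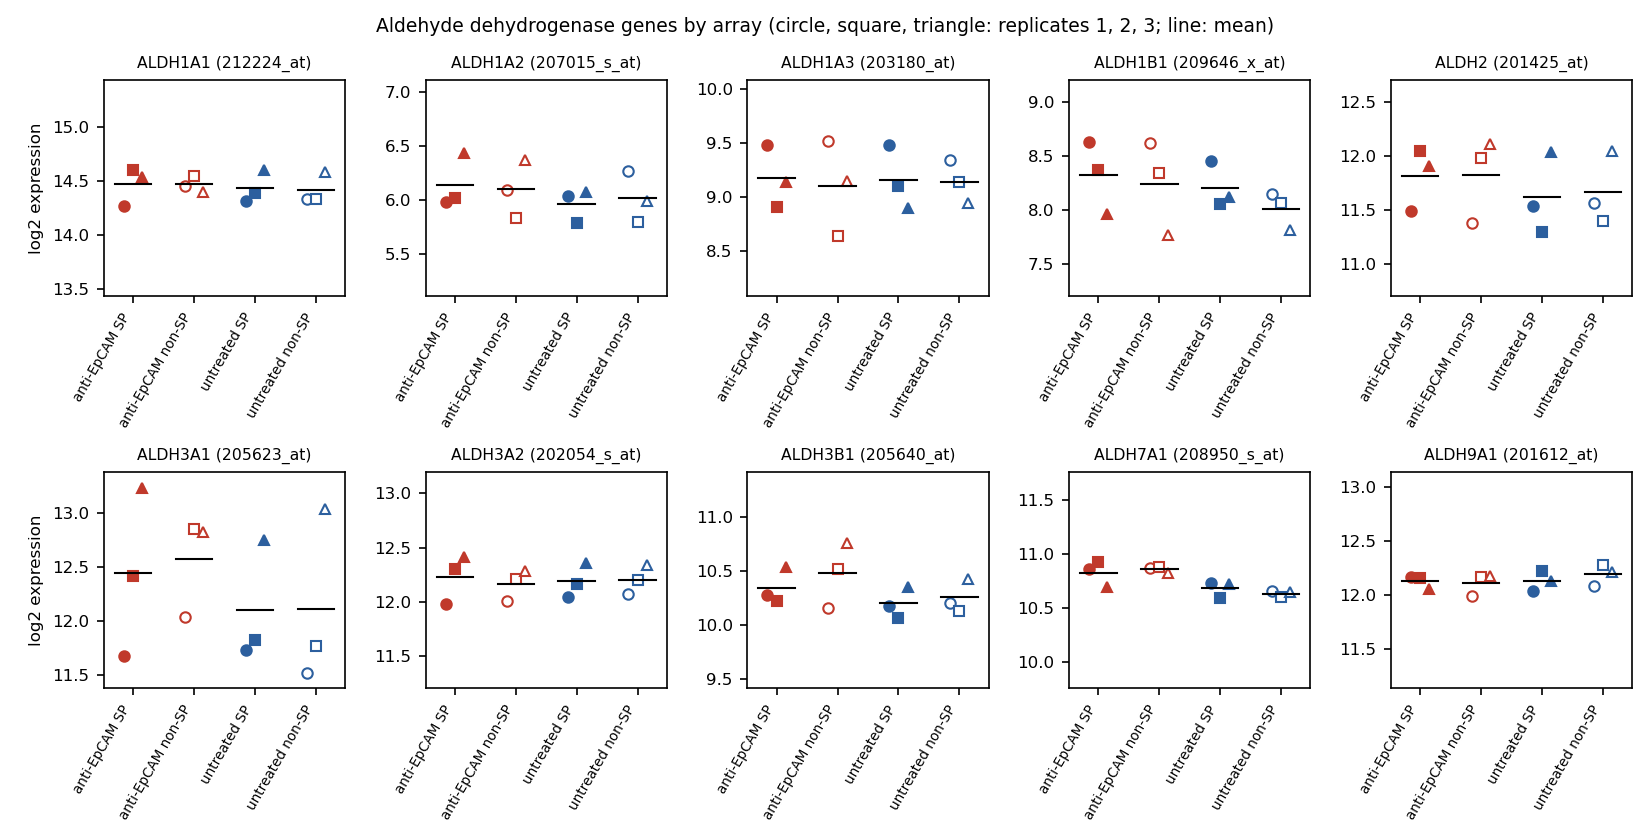
Log2 expression (y axis, each panel spanning the same height) of each ALDH gene's brightest probe set in the 4 groups (x axis). Symbols are replicates 1, 2 and 3, filled for SP and open for non-SP cells, and lines are group means. ALDH1A1 lies between 14.26 and 14.60, near the highest values of the arrays, and ALDH3A1 runs from 11.52 to 13.23, with replicate 1 lowest in every group.

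ALDH3A2, the fatty aldehyde dehydrogenase of the endoplasmic reticulum, had 3 probe sets, whose estimates did not share a sign. The brightest, 202054_s_at, stayed between 11.98 and 12.41 and differed by 0.025 ± 0.050 (adjusted p = 0.859). Probe set 202053_s_at differed by -0.047 ± 0.070 (adjusted p = 0.801). By contrast, 210544_s_at gave within-pair differences of -0.25, 0.59 and 1.03 in the anti-EpCAM pairs and -0.78, -0.0089 and 0.55 in the untreated pairs. Its estimate was 0.19 ± 0.20 (adjusted p = 0.705), with SP cells higher in 3 of 6 pairs. Across the 6 pairs its differences correlated with those of 202054_s_at at r = 0.87 and with those of 202053_s_at at r = 0.77, as a description over pairs that share these arrays. The GAPDH 3′ minus 5′ control, a measure of RNA integrity, differed between SP and non-SP by 0.52, 0.28 and -0.32 in the anti-EpCAM pairs and by -0.092, 0.038 and 0.088 in the untreated pairs. At equal control values of both fractions, a fit chosen after seeing the data, 210544_s_at had 0.28 ± 0.20 (limma adjusted p = 0.529). In that fit 3 of the 17 ALDH probe sets had an unadjusted p under 0.05, against 5451 of all 32768, and 0 were called. Leaving out a pair moved the estimate of 210544_s_at between 0.033 (without untreated pair 3) and 0.37 (without anti-EpCAM pair 1). Probe sets of one gene can read different transcript ends, and which transcripts each of these reads was not analysed here.

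**Figure D3:**
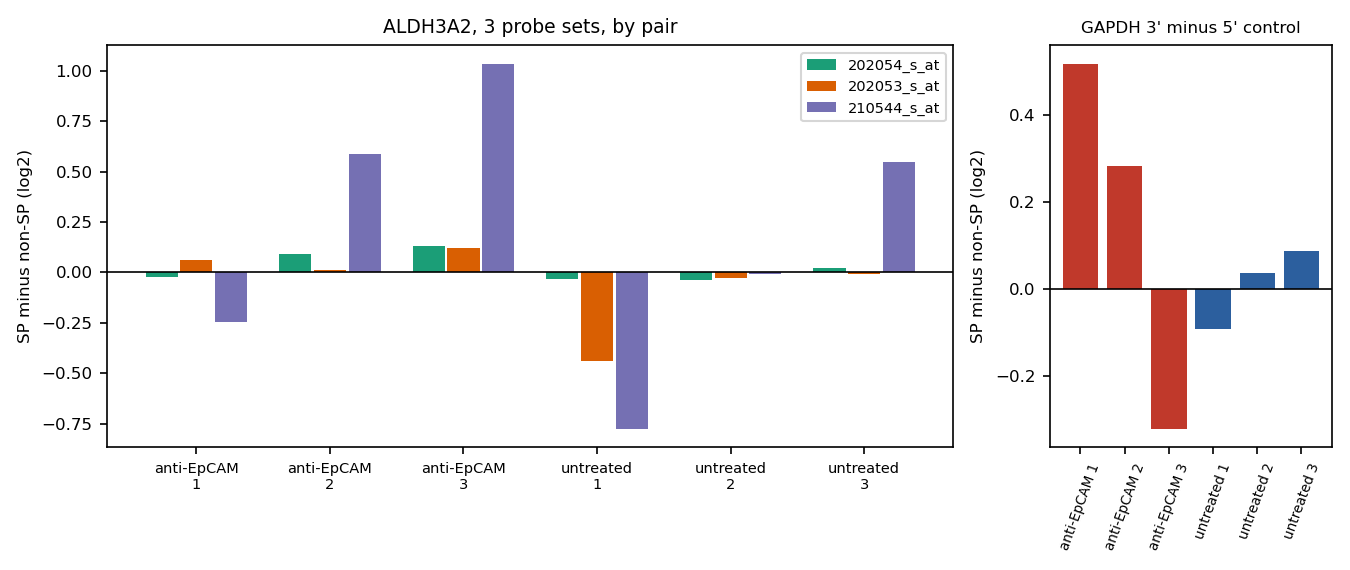
Left, SP minus non-SP differences (y axis, log2) of the 3 ALDH3A2 probe sets in the 6 pairs (x axis). Right, the same difference for the GAPDH 3′ minus 5′ control. Probe set 210544_s_at runs from -0.78 in untreated pair 1 to 1.03 in anti-EpCAM pair 3, while 202054_s_at stays within -0.039 and 0.13.

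ALDH3B1, a membrane-bound enzyme for lipid-derived aldehydes, held the lowest unadjusted p of the family in the comparison of fractions over 6 pairs. Its probe set 211004_s_at read 8.67, 8.57 and 9.12 in anti-EpCAM SP cells, against 8.48, 9.07 and 9.32 in anti-EpCAM non-SP cells. In untreated cells it read 8.42, 8.70 and 8.70 in SP, against 8.79, 8.79 and 9.18 in non-SP cells. SP cells were lower in 5 of 6 pairs, and anti-EpCAM pair 1 had the opposite sign at 0.20. The estimate was -0.24 ± 0.096 (95% interval -0.46 to -0.018, adjusted p = 0.315 in limma). Without anti-EpCAM pair 1 it was -0.33 (adjusted p = 0.108), and without anti-EpCAM pair 2 it was -0.16 (adjusted p = 0.632). The brighter ALDH3B1 probe set 205640_at was also lower in 5 of 6 pairs, at -0.093 ± 0.066 (adjusted p = 0.563), and 1565731_at gave 0.0098 ± 0.058 (adjusted p = 0.957).

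ALDH7A1, also called antiquitin, acts in lysine breakdown, and ALDH9A1 oxidises aminoaldehydes on the way to carnitine and GABA. The 3 ALDH7A1 probe sets differed by 0.0076 ± 0.052 (208950_s_at), 0.022 ± 0.083 (208951_at) and -0.075 ± 0.079 (213591_at), with adjusted p of 0.962, 0.930 and 0.708. ALDH9A1 had the smallest SD of the 19 probe sets, 0.084 over the 12 arrays, with values of 11.99 to 12.28. It differed by -0.024 ± 0.057 (adjusted p = 0.884), lower in SP cells in 5 of 6 pairs. The 95% intervals of all 4 probe sets included 0.

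The fraction was also compared within each treatment, over 3 pairs each. In anti-EpCAM pairs 0 of the 17 ALDH probe sets passed in limma, and 0 had an unadjusted p under 0.05, against 0% and 8.65% of all probe sets. The estimates ran from -0.17 for ALDH3B1 211004_s_at to 0.46 for ALDH3A2 210544_s_at (adjusted p = 0.760 and 0.685). In untreated pairs 0 passed, and 1 had an unadjusted p under 0.05, against 0% and 8.24% of all. That was 211004_s_at of ALDH3B1, at -0.32 ± 0.14 (SE, n = 3 pairs, limma adjusted p = 0.607), and the count was 0 with the deposited values, a common array median or a filter at the 60th percentile. For ALDH1A1 the 95% interval was -0.20 to 0.20 in anti-EpCAM pairs, and the estimate was 0.017 ± 0.085 in untreated pairs. Whether the fraction difference itself depended on the antibody was tested by the interaction, which called 0 of the 17, with 0 at an unadjusted p under 0.05, against 0% and 1.63% of all. The interaction of ALDH1A1 was -0.017 ± 0.12 (95% interval -0.29 to 0.26, adjusted p = 1.00). Its largest estimate was 0.54 ± 0.40, for ALDH3A2 210544_s_at, and 0 of the 17 intervals lay inside ±0.25.

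The second question was whether the antibody changed ALDH levels. Over the 3 treated and 3 untreated pair means, 0 of the 17 ALDH probe sets passed in limma, as did 0% of all probe sets. At an unadjusted p under 0.05 there was 1 of 17, against 1.72% of all. The count was 0 of 17 with the deposited values and with a common array median, against 156 and 373 of all 32768 probe sets. The estimates were above 0 for 13 of the 17, with a median of 0.13, against 0.0064 over all probe sets tested. With the deposited values the medians were 0.23 and 0.093, and 15 were above 0, while with a common array median they were 0.10 and -0.039, and 11 were above 0. The median of the members was 0.060 without anti-EpCAM pair 3 and 0.067 without untreated pair 2. The pair means of the groups did not overlap for 3 of 17 probe sets, against 4.85% of all. These were ALDH1B1 209645_s_at and ALDH7A1 208950_s_at and 213591_at, all higher in treated cells. By their sorted values, treated and untreated arrays lay in different sets, and the scheme of normalisation moved the medians as given above.

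ALDH7A1 had the lowest p of this comparison. The pair means of 213591_at were 7.07, 7.02 and 7.01 in anti-EpCAM cells, against 6.63, 6.82 and 6.76 in untreated cells. The groups did not overlap, and the difference was 0.29 ± 0.11 (SE, n = 3 against 3 pair means, 95% interval 0.031 to 0.55, adjusted p = 1.00 in limma). With the deposited values the difference was 0.39 ± 0.22, and with a common array median it was 0.26 ± 0.15. Neither of these had an unadjusted limma p under 0.05. The brightest ALDH7A1 probe set, 208950_s_at, had pair means of 10.87, 10.90 and 10.76 in anti-EpCAM cells, against 10.69, 10.59 and 10.68 in untreated cells, and differed by 0.19 ± 0.11. The third, 208951_at, overlapped between the groups and also differed by 0.19, with an SE of 0.18. All 3 had a positive estimate, and none passed.

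For ALDH1A1 the antibody difference was 0.043 ± 0.13 (95% interval -0.26 to 0.35), measured near the upper limit of the arrays. The order of its group means was anti-EpCAM SP and anti-EpCAM non-SP (both 14.47), untreated SP (14.43) and untreated non-SP (14.41). These neighbours differed by less than the SDs of 0.075 to 0.18 between replicates. ALDH3A1 had the largest estimate, at 0.40 ± 0.41, which ran from 0.14 without anti-EpCAM pair 3 to 0.79 without untreated pair 3. Its pair means were 11.86, 12.63 and 13.02 in anti-EpCAM cells, against 11.63, 11.79 and 12.89 in untreated cells. The groups overlapped, and the interval of -0.56 to 1.36 reaches up to 2.56-fold on a linear scale. A fit with the replicate number as a block gave the same 0.40 with an SE of 0.16 (limma adjusted p = 0.878). That block is an alternative, since treated and untreated numbers were not taken as pairs.

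**Figure D4:**
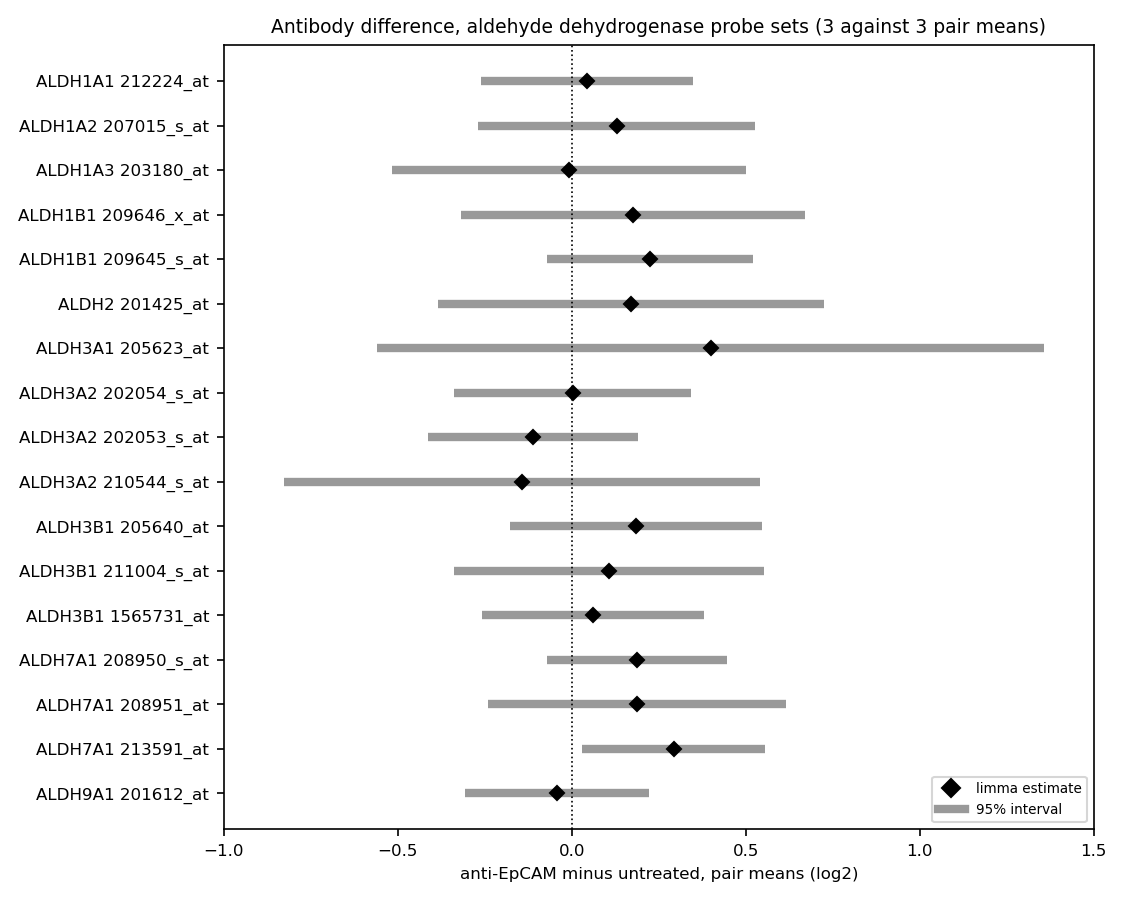
Antibody differences (x axis, log2; anti-EpCAM minus untreated, over 3 against 3 pair means) of the 17 tested ALDH probe sets, one row each. Black diamonds are limma estimates and grey bars 95% intervals. With these quantile-normalised values the interval of ALDH7A1 213591_at (0.031 to 0.55) excludes 0 before adjustment. The widest interval is that of ALDH3A1, from -0.56 to 1.36.

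The arrays also show how the members vary together. Each gene was represented by its brightest probe set, and Pearson r was taken over the 12 arrays, which share pairs, cultures and normalisation, so r is a description. ALDH3A1 correlated most with ALDH2 (r = 0.85), ALDH3A2 (r = 0.84) and ALDH1A1 (r = 0.80). ALDH1A3 ran the other way, with r of -0.74 to ALDH1A1 and -0.73 to ALDH3A2. Replicate 1, lowest for ALDH3A1 and highest for ALDH1A3 in each group, also had the lowest deposited array median of each group (5.58 to 5.70). Whether r follows these medians was not tested. Of 14649 other genes, those most like ALDH1A1 were CDKN2AIP, C12orf75, VCP, HMGN1 and PTGR1, with r of 0.95 to 0.96. Those most like ALDH3A1 were IGFBP2, ERGIC3, CAPNS1, ATG4B and SERTAD3, each with r = 0.98.

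Other genes of the same chemistry were read from 4 lists, 1 probe set a gene, and 0 genes of any list passed over all probe sets in either comparison by limma. Of 7 tested other ALDH genes, 3 had an estimate above 0 for SP minus non-SP and 4 below, with a median of -0.0085, against 0.0055 over all genes. ALDH1L1, a folate enzyme, had the lowest p among them, at 0.12 ± 0.059 (adjusted p = 0.408), and its other probe set had the opposite sign. The mitochondrial succinate semialdehyde dehydrogenase ALDH5A1 followed at -0.062 ± 0.067. Of 11 tested alcohol and aldehyde oxidoreductases, 4 were above 0 and 7 below. The alcohol dehydrogenase ADH1C (-0.25 ± 0.14) and the aldehyde oxidase AOX1 (-0.16 ± 0.12) had the lowest p.

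Of 23 tested retinoid pathway genes, which lie up- and downstream of the ALDH1A enzymes, 9 were above 0 and 14 below in SP minus non-SP, with a median of -0.055. At an unadjusted p under 0.05 there were 4, against 13% of the 14650 genes by the brightest probe set of each. The carotenoid-cleaving enzyme BCO2 had 0.28 ± 0.060 (adjusted p = 0.0958), higher in 6 of 6 pairs, and the retinol carrier RBP4 had -0.28 ± 0.086 (adjusted p = 0.211), higher in 1 of 6. Of 21 tested NRF2 pathway genes, 19 were above 0 and 2 below, against 52.3% of all genes above 0, with a median of 0.068. The 19 included KEAP1, the inhibitor of NRF2 (0.076 ± 0.064), so they are not all genes that NRF2 drives. Among the 19, AKR1C1 (0.010), AKR1C2 (0.011) and AKR1C3 (0.014) were close to 0 and near the upper limit of the arrays. Other probe sets had the opposite sign for AKR1C1 (2 of 3), AKR1C2 (1 of 2) and NQO1 (1 of 2). An unadjusted p under 0.05 was seen in 4 of the 21, against the same 13% of genes. NFE2L2, which encodes NRF2, had 0.30 ± 0.058 (adjusted p = 0.0743) and the glutathione synthesis gene GCLC had 0.30 ± 0.057 (adjusted p = 0.0727), each higher in 6 of 6 pairs. With 1 probe set a gene, limma was refitted on fewer features, and its estimates of spread changed as well. An unadjusted p under 0.05 was then seen in 2386 of the 14650 genes, against 1910 for these probe sets in the main fit. In the refit GCLC (adjusted p = 0.0222), NFE2L2 (0.0227) and BCO2 (0.0328, each an adjusted p) passed, as did 2.41% of all genes. Of the 10 ALDH members 0 passed, and 1 had an unadjusted p under 0.05. In the antibody comparison the 4 lists had 0 calls and 0 genes at an unadjusted p under 0.05. The genes of lowest p there had adjusted p of 1.00. They were ALDH1L2 (0.20 ± 0.13) and ALDH1L1 (-0.21 ± 0.21), the retinoic acid receptor RARB (0.18 ± 0.13) and the retinol dehydrogenase RDH12 (-0.15 ± 0.13). From the other lists they were the aldehyde reductases AKR7A3 (0.13 ± 0.12) and AKR7A2 (-0.18 ± 0.18) and the NADPH-producing enzymes ME1 (-0.13 ± 0.12) and PGD (0.29 ± 0.32).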

How the data were processed

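The authors deposited log2 expression values per probe set for 12 arrays. They were made with RMA, per the submitters' processing notes; its version and which arrays were processed together are not given in the sources used here. The deposited log2 values ran from 2.43 to 14.95, with array medians of 5.58 to 6.24. Values were quantile-normalised over the 12 arrays with limma 3.58.1 in R 4.3.3. Control probe sets, 62 in number, were removed. Among the remaining 54613, 41091 had 1 gene symbol in the probe table, 1801 several and 11721 none. Probe sets with a mean above the 40th percentile (5.39) were kept, 32768 in all.

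Fractions were tested with limma on within-pair differences, with a mean per treatment, and the antibody on pair means, two-sided, with Benjamini-Hochberg adjustment over all kept probe sets and a threshold of 0.05. Arrays of both fractions with a shared treatment and number were paired by the rule set for this gene family, and the labels give only the number. Their deviations from group means correlated in all 6 pairs (r of 0.51 to 0.86). Whether normalisation in these same sets contributed to r was not tested. The pairs were taken as independent, so p-values measure the spread between these samples. The fits were tested on simulated data. The members, lists and tests were chosen with earlier results of these data known. All member probe sets are named; from each list the 2 genes of lowest p per comparison are named where none passed. Likeness was searched for the brightest member and for the one of largest SD. Alternatives covered normalisation, filter, unit tested, trend, block, RNA control and left-out pairs. The number of arrays limits the precision.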

Additional observations from a re-analysis of the deposited data

Results flagged for a closer look

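A pair stood apart from the other 5 in 3 of the 17 within-pair comparisons, against 5.29% of all 32768 probe sets by the same rule; chance flags about 1 in 20 groups. ALDH3A2 202053_s_at had -0.44 in untreated pair 1, against -0.029 to 0.12 in the others. ALDH3B1 1565731_at had -0.20 in untreated pair 1, against -0.016 to 0.083 in the others. ALDH9A1 201612_at had 0.18 in anti-EpCAM pair 1, against -0.12 to -0.0090 in the others.

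For ALDH3A2 202053_s_at the SP value was higher in all 3 anti-EpCAM pairs (0.061, 0.013 and 0.12) and lower in all 3 untreated pairs (-0.44, -0.029 and -0.0077). The share of all probe sets with such a split of signs was not computed. The interaction was 0.22 ± 0.14 (SE, n = 3 against 3 pairs, limma adjusted p = 1.00), and did not pass; without untreated pair 1 it was 0.084. Of the other ALDH3A2 probe sets, 202054_s_at had an interaction of 0.083 ± 0.10 and 210544_s_at of 0.54 ± 0.40.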

How the results depend on the processing

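The count of 0 called ALDH probe sets held in all 5 comparisons under every alternative that was run, and the smallest adjusted p of a member was 0.108 for the fraction over 6 pairs, 0.651 for the antibody and 1.00 for the interaction. Of 264 values of the members for the fraction under 16 alternatives, 25 had another sign than in the main fit, as had 17 of 230 for the antibody and 14 of 213 for the interaction; none of these was called. Over all probe sets, the fraction count was 200 in the paired fit. It was 45 at equal GAPDH control values of both fractions, chosen after seeing the data because the planned covariate, centred over the pairs, cannot move an estimate. It was 0 with no replicate block, 0 without anti-EpCAM pairs 1 and 3, where the lone treated pair is assumed to vary like the untreated ones, and 353 with 1 probe set a gene, which also gave 33 in anti-EpCAM and 11 in untreated pairs, against 0 and 0. Leaving out a pair gave 0 to 329 calls. The treated pair 1 gave 329 when omitted, pair 3 of that treatment 8, and its pair 2, like each untreated pair, 0. Treated and untreated pair means of numbers 1, 2 and 3 correlated at r = 0.74, -0.27 and 0.56, one of them below 0, so the numbers were not taken to pair treated with untreated samples; a replicate block on the number called 0 probe sets for the antibody, and so did 12 arrays taken as independent. With 6 pairs, intervals of the fraction differences reach at most 0.65 from 0, and those of the antibody 1.36.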
